A study of Mus musculus with 2 samples.

Results

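Aminoacyl-tRNA synthetases are the enzymes that join each amino acid to its transfer RNA (tRNA). Their transcripts were read in 2 libraries of ICR mouse oocytes that had been ovulated naturally and stood at the MII stage, the metaphase of the second meiotic division. The aged pool came from females of 12 months and the young pool from females of 3 months. Each library was a single pool of 18 oocytes, 3 from each of 6 females, so values of single females were not measured, and the labels name no mutation or treatment in either group. The 36 members were taken by name from the 36227 genes of the deposited table: 20 cytosolic enzymes or subunits and 16 mitochondrial enzymes, whose symbols end in 2. All 36 were found by Ensembl ID. The cytosolic symbols used here are the older ones, such as Aars where newer annotation has Aars1, with Mars1 as the exception.

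A synthetase activates its amino acid with ATP and then transfers it to the matching tRNA, which carries it to the ribosome. The enzymes fall into a pair of unrelated structural classes, I and II, which differ in the fold of the active site. Cytosol and mitochondria mostly use separate enzymes, all encoded in the nucleus, although Kars and Gars each make both forms from 1 gene. In mammals, 8 of the cytosolic synthetase genes encode subunits of the multisynthetase complex, held together by the scaffold proteins of Aimp1, Aimp2 and Eef1e1. A mature oocyte is transcriptionally silent, so its mRNA comes from the stock stored during growth.

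The aged pool held 18597656 counts over 16406 detected genes, and the young pool 19475110 counts over 16317. Levels are given as counts and as CPM, the count scaled to a library total of 1000000, and ratios are aged over young after scaling to these totals. With 1 library per age there was no replicate check and no test: genes are described as at least 2-fold apart, with 95% exact (Clopper-Pearson) counting intervals. The cDNA was amplified with no molecular identifiers, so a read is not a separate molecule, and the intervals cover counting error only. Ratios were counted where the mean of both pools reached 20 counts, which held for 10211 genes of the table. A count of 0 allowed up to 0.161 CPM in the aged pool and 0.154 CPM in the young one. All 10 oocyte markers were present, with 1821431 counts in the aged pool and 3462266 in the young one, mostly of Gdf9 and H1foo, which were both lower in the aged pool. In the same list Nlrp5 was 2.54-fold and Dppa3 2.16-fold higher in the aged pool. Markers of granulosa and cumulus cells summed to 1077 aged and 481 young counts. Of these, Cyp19a1 had 1056 and 436 and Fshr 16 and 0, while Cyp11a1 had 1 and 27 and Inha 0 and 14. Foxl2, Amh, Amhr2, Lhcgr, Inhba and Star had no count. Stromal markers summed to 47 aged and 78 young counts, among them Vim with 0 and 51, Col1a1 with 7 and 19, Acta2 with 36 and 4 and Col3a1 with 4 and 1. Blood markers summed to 0 and 1. The part of other cells in the ratios below was not tested. Bub1b, the gene of the study's title, was 2.18-fold lower in the aged pool (95% counting interval 2.14 to 2.23).

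Synthetase transcripts made up 0.144% of all counts in the aged pool and 0.0816% in the young one. Cytosolic members were mostly higher in the aged pool, while mitochondrial members were spread from higher to nearly absent. Of the 36 members, 25 passed the count minimum, 18 cytosolic and 7 mitochondrial. A further 9 had counts below it, and the mitochondrial genes Mars2 and Nars2 had none in either library. Among the 25, 10 stood at least 2-fold higher in the aged pool, where 27.9% of all genes were, and 2 were at least 2-fold lower, where 10.6% of all genes were. The whole counting interval lay beyond 2-fold for 4 of the higher members, where it did for 18% of all genes, and for both of the lower ones, against 6.35%. The median log2 ratio was 0.98 over the cytosolic members and 0.43 over the mitochondrial members, against 0.43 for all genes. The mitochondrial median turned negative, at −0.67, over all 12 mitochondrial members with a ratio, where that of all genes was 0.39. This value lies between Wars2 and Yars2, and the Yars2 ratio rests on 0 aged counts, set to 3, and 6 young counts. After a correction for transcript length and GC content the mitochondrial median was −0.25. In such pools, fewer oocytes with a transcript and less of it per oocyte cannot be told apart. In the cytosolic group 15 of 18 ratios lay above 0, where 66.4% of all genes did, and 13 of 18 lay above the median gene.

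The scaling sets how many members pass 2-fold. Relative to the median gene, whose ratio is 0.43, 3 members stood at least 2-fold higher and 3 stood lower, where 16% and 17.3% of all genes were. With trimmed mean of M-values (TMM) scaling there were also 3 and 3, where 17.2% and 16.3% of all genes were. Once the 100 most abundant genes were dropped from the totals there were 5 and 2, where 19.5% and 14.6% of all genes were. Among all genes past 2-fold, 72.5% were higher with library totals, 51.3% with TMM, 57.2% without the 100 most abundant genes and 48.0% relative to the median gene. Farsb, Eprs and Gars were the 3 higher members relative to the median gene, and Cars2, Sars2 and Mars1 the 3 lower.

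**Figure D1:**
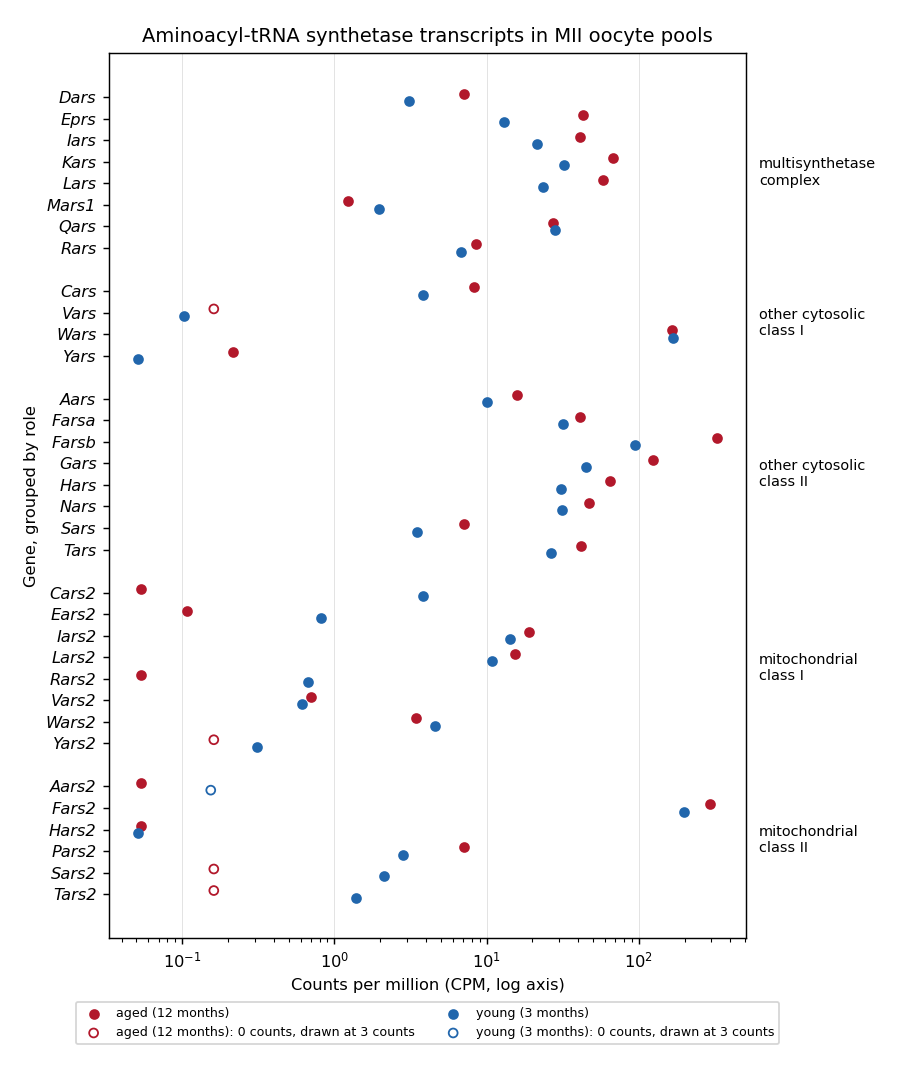
Level of each of the 34 members with counts, in CPM on a log axis, in the aged (red) and young (blue) pool, grouped by role; open circles mark 0 counts, drawn at the level of 3 counts. Farsb is highest in the aged pool at 328 CPM, against 94.2 CPM in the young pool, and Fars2 is highest in the young pool at 199 CPM, against 296 CPM in the aged pool.

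All 8 synthetase genes of the multisynthetase complex passed the count minimum. Of them, 4 (Eprs, Lars, Dars and Kars) stood at least 2-fold higher in the aged pool, where 27.9% of all genes were. Eprs, a single protein that charges both glutamate and proline tRNAs and forms part of the core of the complex, had 797 counts in the aged pool and 254 in the young one. This was 3.29-fold higher (2.85 to 3.80), the largest ratio among the 8 synthetase genes of the complex. Lars, the leucine enzyme, which also takes part in sensing leucine for the mTORC1 pathway, had 1081 aged and 458 young counts and was 2.47-fold higher (2.21 to 2.76). Dars, the aspartate enzyme, had 133 aged and 60 young counts and was 2.32-fold higher (1.70 to 3.20). Kars, the lysine enzyme of both compartments, had 1263 aged and 624 young counts and was 2.12-fold higher (1.92 to 2.34). For Dars and Kars the interval began below 2-fold.

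The other complex members stayed within 2-fold. Iars, the isoleucine enzyme, had 764 aged and 420 young counts, 1.90-fold higher (1.69 to 2.15). Rars, the arginine enzyme, had 158 aged and 133 young counts, and Qars, the glutamine enzyme, 510 and 548. Their intervals, 0.982 to 1.58 and 0.862 to 1.10 as aged over young, included equality. Mars1, the methionine enzyme, was the least abundant of the complex, with 23 aged and 38 young counts, 1.58-fold lower with an interval that also included equality (0.916 to 2.77). Subunits of the same complex therefore spanned log2 ratios of −0.66 to 1.72, with a median of 1.01. After the correction for transcript length and GC content their median was 0.20, and 1 of the 8 was at least 2-fold higher, where 13.6% of all genes were. Cytosolic genes outside the complex and above the minimum had a median of 0.84 before this correction and 0.60 after it. The 3 scaffold genes were all higher, with 772 aged and 244 young counts for Eef1e1 (3.31-fold), 250 and 128 for Aimp2 (2.05-fold) and 137 and 105 for Aimp1 (1.37-fold). Relative to the median gene only Eprs and Eef1e1 remained at least 2-fold higher among these 11 genes, where 16% of all genes were.

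Outside the complex, all 8 cytosolic class II genes had ratios above 0, where 66.4% of all genes did. Of these 8, 4 (Farsb, Gars, Hars and Sars) stood at least 2-fold higher in the aged pool, where 27.9% of all genes were. Farsa and Farsb encode the alpha and beta subunits of the cytosolic phenylalanine enzyme, a tetramer that needs both. Farsb (ENSMUSG00000026245, chromosome 1) had 6102 aged counts (328 CPM) and 1834 young counts (94.2 CPM). It was 3.48-fold higher (3.31 to 3.67), the largest ratio among members above the minimum. Farsa (ENSMUSG00000003808, chromosome 8) had 762 aged counts (41.0 CPM) and 615 young counts (31.6 CPM), 1.30-fold higher (1.17 to 1.45), and relative to the median gene it was just lower, at −0.05. The intervals of the partner subunits did not overlap. Per kilobase of transcript, Farsb exceeded Farsa 7.18 times in the aged pool and 2.67 times in the young one.

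Gars, the glycine enzyme, which like Kars serves both compartments, had 2310 aged and 881 young counts and was 2.75-fold higher (2.54 to 2.97). Hars, for histidine, had 1199 aged and 597 young counts, 2.10-fold higher (1.90 to 2.32). Sars, for serine, had 133 and 68, 2.05-fold higher (1.52 to 2.79). Like Farsa, 3 more were within 2-fold: Tars, for threonine, with 772 aged and 520 young counts (1.55-fold), Aars, for alanine, with 294 and 196 (1.57-fold), and Nars, for asparagine, with 879 and 611 (1.51-fold). None of the 8 intervals in this class II group reached down to equality, though the median gene itself stood at a log2 ratio of 0.43. The share of all genes with an interval clear of equality was not counted. After the correction for transcript length and GC content Nars stood at −0.07 and Tars at 0.03.

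The 4 cytosolic class I genes outside the complex differed widely in level. Wars, the tryptophan enzyme, was among the most abundant synthetases, with 3054 aged counts (164 CPM) and 3256 young counts (167 CPM), and its interval included equality (0.935 to 1.03 as aged over young). Cars, the cysteine enzyme, had 153 aged and 74 young counts and was 2.17-fold higher (1.63 to 2.90). Yars, for tyrosine, had 4 aged and 1 young counts and Vars, for valine, 0 and 2, so at this depth no difference could be shown for either.

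Among members above the minimum, whatever their compartment, the 13 class II genes had a median log2 ratio of 1.03, with 12 above 0 and 7 at least 2-fold higher. The 11 class I genes had a median of 0.32, with 6 above 0 and 2 at least 2-fold higher. Among all genes 66.4% lay above 0 and 27.9% were at least 2-fold higher, shares that lie between those of the classes. Eprs, which joins a class I and a class II enzyme, is in neither count. Relative to the median gene the class II median was 0.61 and the class I median −0.11. Median GC content was alike, 51.4% and 51.2%, while class II transcripts were shorter, with a median of 2189 bases against 3222. After each ratio was reduced by the median of all genes of similar length and GC content, the medians were 0.60 and −0.30. The difference between the classes was not tested.

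**Figure D2:**
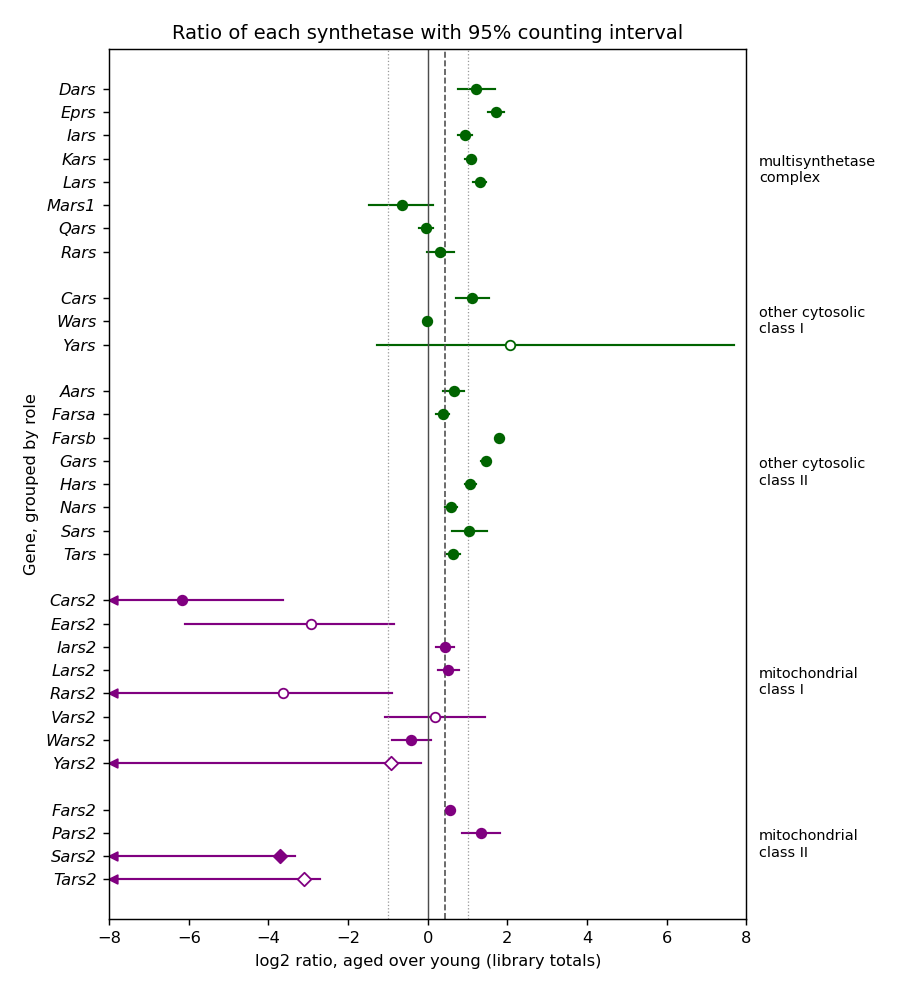
The log2 ratio of aged over young for each of the 31 members with more than 3 counts in a library, with 95% counting intervals (lines; arrows run off the axis), cytosolic in green and mitochondrial in purple. Filled symbols passed the count minimum, diamonds had 0 aged counts set to 3, the dashed line is the median gene at 0.43 and dotted lines mark 2-fold; class II genes such as Farsb at 1.80 and Gars at 1.46 lie right of the dashed line and Cars2 at −6.16 lies far left.

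Of the 16 mitochondrial enzymes, which charge the tRNAs used to translate the few proteins encoded by mitochondrial DNA, 7 passed the minimum. Of these 7, 1 was at least 2-fold higher in the aged pool, where 27.9% of all genes were. Another 2 were at least 2-fold lower, where 10.6% of all genes were. Fars2, the single-chain phenylalanine enzyme, took most of the mitochondrial signal. It had 5496 aged counts (296 CPM) and 3879 young counts (199 CPM), which was 86.5% of all mitochondrial synthetase counts in the aged pool and 82.5% in the young one. It was 1.48-fold higher (1.42 to 1.55), close to the median gene. Pars2, for proline, was the 1 gene past 2-fold upward, with 132 aged and 55 young counts (2.51-fold, 1.82 to 3.51). Lars2, for leucine, had 288 aged and 210 young counts, and Iars2, for isoleucine, 356 and 277, both within 2-fold. Wars2, for tryptophan, had 64 aged and 89 young counts, with an interval that included equality (0.537 to 1.05 as aged over young).

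Cars2, the mitochondrial cysteine enzyme, had 1 count in the aged pool and 75 in the young one. Its ratio was 71.6-fold lower with a wide interval (12.5 to 2866). Sars2, the serine enzyme, had 0 aged and 41 young counts and was at least 13.1-fold lower against a limit of 3 counts in the aged pool, with the near end of its counting interval at 10.1-fold. Both values rest on few reads. Among all genes with a mean of 20 to under 50 counts, 18.8% were at least 2-fold lower.

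Below the minimum, Tars2, for threonine, had 0 aged and 27 young counts, at least 8.59-fold lower against 3 counts (near end 6.52). Ears2, for glutamate, had 2 aged and 16 young counts (7.64-fold lower, 1.80 to 68.5) and Rars2, for arginine, 1 and 13 (12.4-fold lower, 1.86 to 528). Vars2, for valine, had 13 and 12. Of these 4 mitochondrial genes with a mean of 5 to under 20 counts, 3 were at least 2-fold lower, where 29.8% of all genes in that range were. Yars2, for tyrosine, had 0 aged and 6 young counts, at least 1.91-fold lower against 3 counts (near end 1.12). Aars2 had 1 and 0 and Hars2 1 and 1, and no fold is given for these. Over both compartments, 7 members had a mean of 5 to under 50 counts, and 4 of them, Cars2, Sars2, Tars2 and Rars2, had 0 or 1 count in the aged pool. Among all 5016 genes in that range, 7.72% had 0 or 1 count in the aged pool and 6.84% in the young one. Without Fars2, the mitochondrial members summed to 46.2 CPM in the aged pool and 42.2 CPM in the young one.

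For 11 of the mitochondrial enzymes, the gene for the same amino acid in the cytosol could be set beside it. This gave 12 pairs with a ratio in each, since Eprs pairs with Ears2 and Pars2, and Fars2 with both Farsa and Farsb. In 11 of the 12 pairs the cytosolic ratio was the higher, and in 8 the counting intervals did not overlap. These intervals cover counting error only, and how often those of other gene pairs lie apart was not counted. For cysteine, Cars stood at a log2 ratio of 1.11 and Cars2 at −6.16. For serine, Sars stood at 1.03 and Sars2 at −3.71 or lower. Isoleucine and leucine gave smaller gaps, with Iars at 0.93 and Iars2 at 0.43, and Lars at 1.31 and Lars2 at 0.52. Farsa at 0.38 and Fars2 at 0.57 were the pair with the other order, and their intervals overlapped. With both genes above the count minimum there were 8 pairs, with the cytosolic ratio higher in 7. The pair of Yars and Yars2 rests on 4 aged and 1 young counts against 0 and 6. The order within a pair does not depend on the scaling of the libraries, and the pairs share the libraries and some genes, so no test was made.

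**Figure D3:**
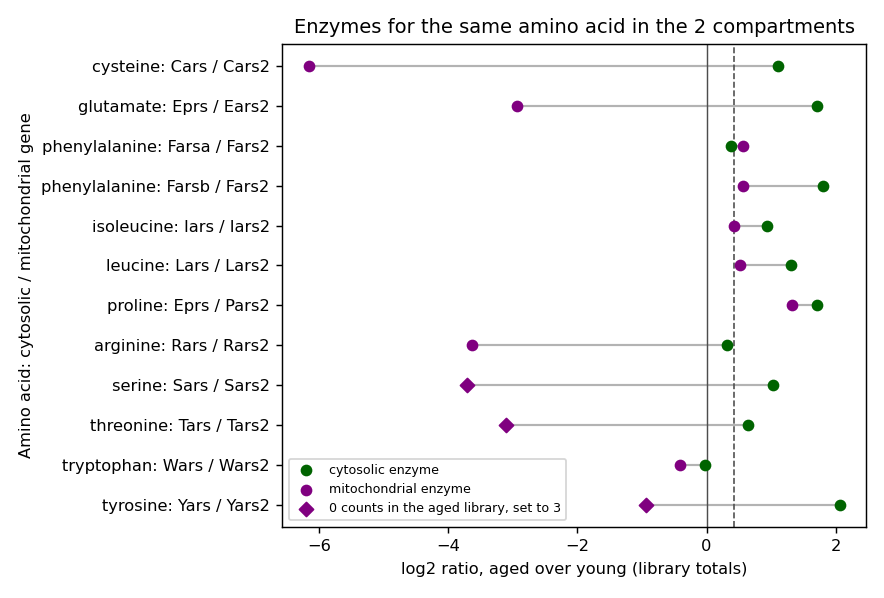
The log2 ratio of aged over young of the cytosolic (green) and mitochondrial (purple) enzyme for the same amino acid, 1 row per pair, with diamonds where the aged count of 0 was set to 3 and a dashed line at the median gene. The green point lies right of the purple one in 11 of 12 rows, the exception being Farsa with Fars2.

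Per kilobase of transcript, the order of levels was led by the same 4 genes in both libraries. In the aged pool Farsb stood first with 161 CPM per kilobase, then Fars2 with 139, Wars with 58.0 and Gars with 52.2. In the young pool Fars2 stood first with 93.7, then Wars with 59.1, Farsb with 46.3 and Gars with 19.0. Members of the multisynthetase complex covered a wide range of this scale in the aged pool, with Kars at 31.0, Lars at 14.6, Qars at 9.79, Iars at 9.28, Eprs at 8.74, Rars at 4.03, Dars at 3.29 and Mars1 at 0.42. The cDNA was primed at the poly(A) tail. How evenly reads covered each transcript was not tested, nor was the part of tail length in the counts.

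Across all genes the ratio was lower at higher GC content, with a Spearman's rho of −0.40 over 9902 genes. Over the 25 members rho was −0.41, as a description across genes of the same libraries. The cytosolic members had a median GC content of 50.3% and the mitochondrial ones 51.7%, against 49.7% for all genes. Dars had the lowest GC content of the members above the minimum, 41.2%, and Sars2 the highest, 60.1%. After each ratio was reduced by the median of genes of similar length and GC content, 4 members, Farsb, Gars, Eprs and Cars, were at least 2-fold higher, where 13.6% of all genes were. Then 3 members, Cars2, Sars2 and Wars2, were at least 2-fold lower, where 14.9% of all genes were. The cytosolic median was then 0.53, with 13 of 18 members above 0, and the mitochondrial median −0.25. Dars, at 1.21 before, became 0.14, while Farsb became 1.12 and Gars 1.18.

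**Figure D4:**
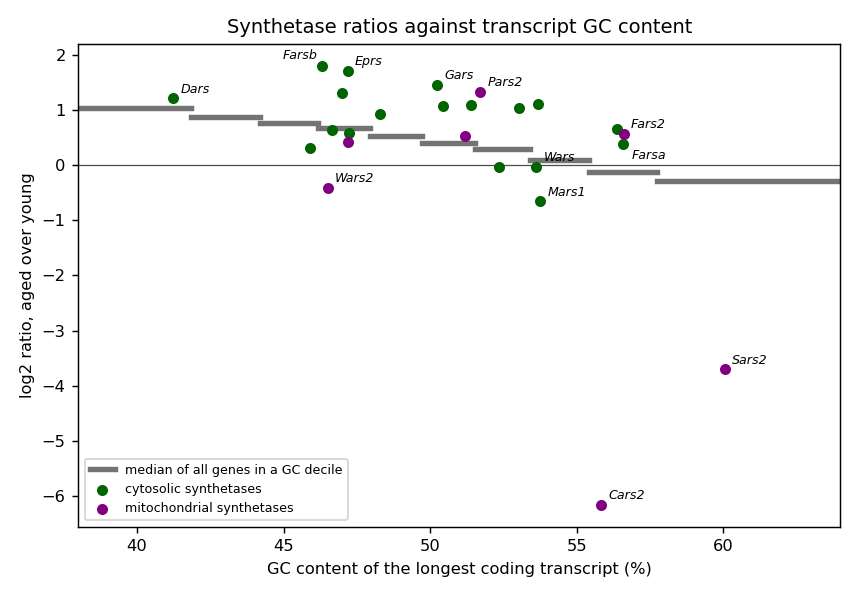
The log2 ratio of aged over young against transcript GC content for the 25 members above the count minimum, cytosolic in green and mitochondrial in purple; grey bars are the median of all genes in each of 10 equal bins of GC content. The bars step down with GC content, and Farsb, Eprs, Gars and Pars2 lie above the bar at their GC content while Mars1, Wars2, Cars2 and Sars2 lie below it.

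Near-identical sequence elsewhere was sought among all annotated mouse transcripts, at 90% identity or more over at least 200 bases. Iars matched the processed pseudogene Gm4849 over 1656 bases at 96.0% identity. Gm4849 is not among the genes of the deposited table, and how the authors' counting treated reads that match both is not known. Iars2 shares 2034 bases on the opposite strand with Rab3gap2, which had 16 aged and 267 young counts, with use of strand not given in the sources used here. Shorter overlaps on the opposite strand joined Farsb to Sgpp2 (250 bases, 70 aged and 80 young counts) and Cars2 to Naxd (217 bases, 32 and 35), and Nars2, which had no count, to C230038L03Rik (284 bases). Tars matched Gatad2b on the opposite strand at 90% identity over 200 bases, and Gatad2b had 257 aged and 86 young counts. Reads from the opposite-strand overlaps of Iars2, Farsb, Cars2 and Nars2, all at 100% identity, cannot be told apart without strand. Aars shares 1326 bases on the same strand with Exosc6, which is also not among the genes of the deposited table.

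Transcription factor Atf4, which the integrated stress response brings up when amino acids run short, is known in mammalian cells to raise many cytosolic synthetase genes. It does so through elements of the type TGATGNAA. The stretches below, read from RefSeq promoter windows of 250 bases before to 50 after each start (build GRCm38.p6), show where these letters stand in members, with 1 stretch for each gene. Each gives 30 bases 5′ to 3′ on the gene's strand, with the match in capitals. TTGCATCA and TTTCATCA are the element read on the other strand.
Aars, chr8:111033840-111033869, + strand: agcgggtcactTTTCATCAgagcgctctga
Gars, chr6:55037960-55037989, + strand: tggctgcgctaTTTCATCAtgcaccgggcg
Iars, chr13:49682126-49682155, + strand: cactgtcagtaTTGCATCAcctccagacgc
Tars, chr15:11399655-11399684, − strand: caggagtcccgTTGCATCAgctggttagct
Yars, chr4:129189895-129189924, + strand: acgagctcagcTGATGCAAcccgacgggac

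Of the 13 cytosolic members with a promoter window, these 5 held a match on either strand, and of 14 mitochondrial members with a window 0 did, where 4.51% of all 27025 genes with a window did. In Tars the match shown began 15 bases before the start and in Gars 30. In Aars, Iars and Yars it began past the start, at base 10, 8 and 4. Aars held another match, not shown, that began 112 bases before the start. The log2 ratios of the 4 genes with a match and enough counts were 1.46 for Gars, 0.93 for Iars, 0.65 for Aars and 0.64 for Tars. Cytosolic genes with a window and no match included Farsb at 1.80, Eprs at 1.72 and Dars at 1.21, as well as Qars at −0.04 and Mars1 at −0.66. The ratios with and without a match thus overlapped. A match is only a run of letters, and binding was not measured.

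Atf4 itself had 1290 aged counts (69.4 CPM) and 1256 young counts (64.5 CPM), with an interval of its ratio that included equality (0.994 to 1.16). Eif2ak4, the kinase that senses uncharged tRNA, had 789 aged and 740 young counts (1.12-fold higher, 1.01 to 1.24). Of 29 genes of the stress response and Atf4 targets, 21 passed the minimum, with 5 at least 2-fold higher and 3 lower, near the 27.9% and 10.6% of all genes. Their median was 0.13, against 0.43 for all genes. Furthest from equality were Nupr1, a stress-induced chromatin protein gene (0 aged and 91 young counts, at least 29.0-fold lower against 3 counts), Chac1, which degrades glutathione (39 and 5 counts, 8.17-fold higher), and Stc2, a secreted glycoprotein gene (198 and 26 counts, 7.97-fold higher).

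Among 22 genes of tRNA maturation and export, 13 passed the minimum, with 3 at least 2-fold higher and 1 lower, near the 27.9% and 10.6% of all genes, and a median of 0.51. Rpp30, of ribonuclease P, was 4.31-fold higher (140 aged and 34 young counts) and Rtcb, the tRNA ligase, 2.62-fold higher (193 and 77). Hsd17b10, a subunit of mitochondrial ribonuclease P, was 38.2-fold lower (1 aged and 40 young counts, 6.47 to 1546). Of 9 elongation factor genes, 7 passed and their median was 0.92. Of these, 3 were at least 2-fold higher, where 27.9% of all genes were, and none was at least 2-fold lower. These 3 were Gfm2, of mitochondrial ribosome recycling (364 and 131 counts, 2.91-fold), Eef1d, of the exchange factor for cytosolic elongation factor 1 (341 and 144, 2.48-fold), and Eef2, of translocation (319 and 152, 2.20-fold). Eef1b2, with most counts of the list (9641 and 12158), and Tsfm (654 and 797) were lower. The list summed to 648 CPM in the aged pool and 711 in the young one, and its median after the length and GC correction was 0.23.

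The median was −0.27 over 2 mitochondrial partners above the minimum and −0.58 over 4 genes of selenocysteine and Tarsl2. Mitochondria charge glutamine tRNA through an amidotransferase in place of a synthetase of their own. Its subunit gene Gatb had 99 aged and 251 young counts, 2.42-fold lower (1.91 to 3.09), while its partners Gatc (5 and 2) and Qrsl1 (17 and 8) lay below the minimum. Mtfmt, which formylates the mitochondrial initiator methionine, had 87 aged and 55 young counts, 1.66-fold higher. Of the 4 proofreading genes, only Aarsd1, which clears serine from mischarged alanine tRNA, passed the minimum, with 44 aged and 163 young counts, 3.54-fold lower (2.52 to 5.05). Selenocysteine is made on its tRNA after charging with serine, by the enzymes of Pstk and Sepsecs, and its codon is read with the binding protein of Secisbp2. These were 1.58-fold (32 aged and 53 young counts), 1.52-fold (195 and 310) and 1.47-fold (545 and 838) lower, all within 2-fold. Tarsl2, a threonine enzyme paralogue in this list, had 63 aged and 48 young counts, with an interval that included equality (0.929 to 2.04 as aged over young).

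**Figure D5:**
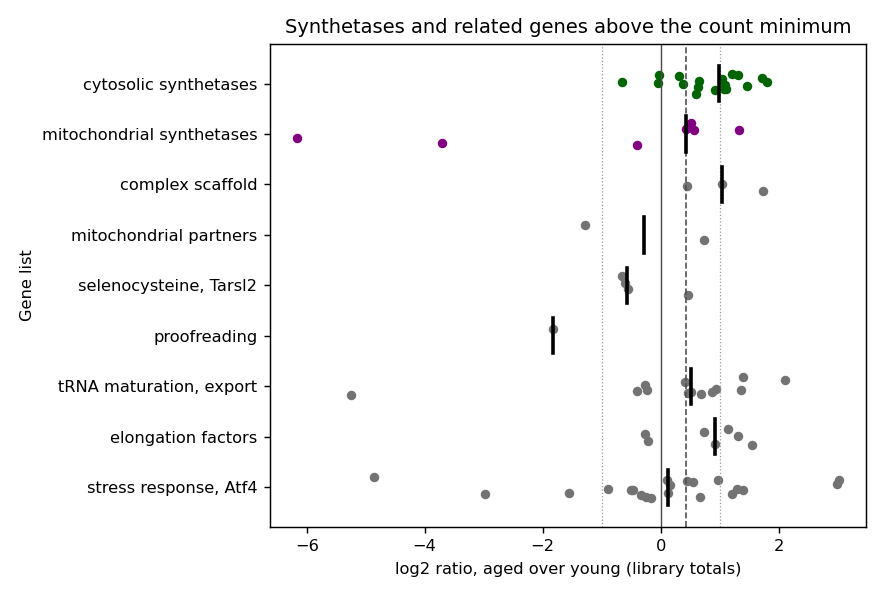
The log2 ratio of aged over young of each gene above the count minimum in the synthetase groups and the related lists (points, spread vertically only for legibility), with the median of each list as a black bar, a dashed line at the median gene and dotted lines at 2-fold. The cytosolic synthetases have a median of 0.98, the scaffold genes 1.03 and the elongation factors 0.92, while the stress response list lies at 0.13 and the selenocysteine list at −0.58.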

How the data were processed

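Gene counts from SOLiD sequencing of 2 oocyte pools were used. Per the labels' protocols, mRNA was primed with an adaptor carrying 24 bases of oligo(dT), tailed, and amplified by 18 and then 14 PCR cycles. Per the submitters' processing notes the build was mm9; aligner, counting program, annotation and use of strand were not given in the sources used here. The counts are unnormalized whole numbers, as deposited, given for 18364 of 36227 genes. The authors' deposited log2 fold changes (young over aged) matched the counts within 1e-06 for all 29 members with counts in both libraries. The authors' deposited score (a z value), its p-value and its q-value set single libraries against each other and were not used.

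Symbols came from GENCODE mouse release M21, which matched 85.5% of rows. Length and GC content are those of the longest coding transcript, found for 97.0% of genes above the minimum and all 36 members. It is annotated on a later build, so only chromosomes from the deposited table are given, except for promoter stretches, whose GRCm38.p6 coordinates are RefSeq's. Ratios of counts per library total used a mean of at least 20 counts. A count of 0 was set to 3, and no fold is given where both libraries held 3 counts or fewer. Every member is accounted for, and of each related list up to 3 genes furthest from equality, with Atf4 and Eif2ak4. The members and lists were chosen with earlier results of these data known. The calculation was tested on simulated data. Python 3.11.15, numpy 2.4.6, pandas 2.3.3, scipy 1.17.1, matplotlib 3.10.9, BLAST+ 2.17.0 and, for scaling factors only, edgeR 4.0.16 and DESeq2 1.42.0 in R 4.3.3 were used. Alternatives were other scalings, count minimums, 5 added counts, and a correction by 10 bins of length and 10 of GC content.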

Additional observations from a re-analysis of the deposited data

How the results depend on the processing

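No paired analysis was possible because each age had 1 library, and for the same reason no library could be left out. The number of members at least 2-fold higher, 10 with library totals, was 3 with TMM factors, 3 with DESeq2 size factors, 3 relative to the median gene, 5 without the 100 most abundant genes and 4 after the length and GC correction. Of all genes 27.9% were with library totals and, in the order given, 17.2%, 17.6%, 16%, 19.5% and 13.6%. In the same order the median log2 ratio of all members, 0.64 with library totals, was 0.26, 0.28, 0.21, 0.35 and 0.27. The cytosolic median of 0.98 became 0.61, 0.63, 0.56, 0.70 and 0.53, and the mitochondrial median of 0.43 became 0.054, 0.072, 0.0029, 0.14 and −0.25. The shifts under scaling are those of all genes. The mitochondrial median was also below 0, at −0.67, with no count minimum, where genes with few counts enter, and members at least 2-fold lower were then 5. With a mean of at least 100 counts 0 of 19 members were at least 2-fold lower, where 7.39% of all genes were. Cars2 and Sars2 lie below that minimum. A ratio had the other sign for Rars under 4 alternatives and for Farsa, Nars and Iars2 under 1 each, none of which was 2-fold apart with library totals; a count minimum cannot turn the sign of a single gene. Without counts or below the count minimum were 9 of the 16 mitochondrial and 2 of the 20 cytosolic members, for reasons that were not tested.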
